A study of Homo sapiens with 12 samples.

Results

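The Fanconi anaemia repair genes examined here are a list of 10 named genes, FANCA, FANCB, FANCC, FANCD2, FANCG, FANCI, FANCL, FANCM, BRIP1 and UBE2T, all members of one DNA repair pathway. Of these 10 genes, 8 had a probe set annotated with 1 gene symbol and could be measured, among 18417 genes in all, and each of the 8 was read by 1 probe set. FANCA and FANCD2 had no such probe set and were not analysed here.

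The Fanconi anaemia pathway repairs DNA crosslinks that join both strands and block the replication fork. FANCM brings the core complex, which includes FANCB, FANCC, FANCG and the ubiquitin ligase FANCL, to the stalled fork, and FANCL with the ubiquitin-conjugating enzyme UBE2T then attaches ubiquitin to the pair FANCD2 and FANCI. The ubiquitinated pair calls in nucleases and recombination proteins such as the helicase BRIP1, and the pathway is known for its work in cells that are copying their DNA.

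Transcripts were measured on 12 Affymetrix arrays of SK-mel147, an established human melanoma line grown in culture, in which every group carried lentiviral short hairpin RNAs. The study's interest, from its title and design, was what loss of the histone variant H2A.Z does in melanoma cells; H2A.Z replaces H2A in part of the nucleosomes and is made from the genes H2AZ1 and H2AZ2. The groups were the H2AZ2 hairpins sh_37 and sh_38, the H2AZ1 hairpins sh_83 and sh_84, and the control hairpins scrambled and luciferase, with 2 arrays per hairpin and 4 per target. One array, replicate 2 of sh_84, is named sh_84 in its title but sh_43 in its RNAi label; it was grouped by its title, and that pair is called the arrays labelled sh_84. The labels give neither the time after infection nor any selection of infected cells, and they do not say that replicates were separate cultures, so p-values measure the spread between arrays, which may be technical. All values below are log2 expression. The number of arrays limits the precision.

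The targeted transcripts were read first. H2AZ2 stood at 9.94 and 9.83 in the sh_37 arrays and at 10.43 and 10.35 in the sh_38 arrays, against 10.94 and 10.99 in the scrambled and 11.03 and 11.05 in the luciferase arrays. H2AZ1 stood at 9.79 and 9.94 in the sh_83 arrays but at 12.10 and 12.15 in the arrays labelled sh_84, against 12.30 and 12.18 in the scrambled and 12.12 and 12.38 in the luciferase arrays. H2AZ1 was not called lower in the arrays labelled sh_84 (difference -0.12, limma adjusted p = 0.859), which goes against their label. H2AZ1 was lower with sh_83 by a difference of -2.38 (adjusted p = 1.31e-06). As a rough scale only, since probes differ in response, SOX10, a melanocyte lineage factor, was brighter in the control arrays than 91.3% of genes, whereas the pigment genes PMEL, MLANA, TYR and TYRP1 were brighter than 16.8%, 9.67%, 7.27% and 6.60%. MITF, the regulator of the lineage, was brighter than 59.3%. Of genes found in undifferentiated melanoma cells, the receptors AXL and NGFR were brighter than 99.3% and 96.3%, and SOX9 than 72.7%.

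With the H2AZ2 hairpins, Fanconi anaemia genes were lower. With sh_37, 4 of the 8 measured genes fell (FANCC, FANCG, FANCI and UBE2T), and with sh_38, 3 fell (FANCC, FANCI and BRIP1), so FANCC and FANCI fell with both. None of the 8 rose with either hairpin. The falls lay between 0.40 and 0.68 on the log2 scale, which left these transcripts at 62.6% to 75.9% of the control level. Among all genes, 7.19% were called lower with sh_37 and 3.33% with sh_38 by the same test, limma with Benjamini-Hochberg adjustment over all 18417 genes at 0.05. The median difference of the 8 genes was -0.48 with sh_37 and -0.47 with sh_38, against 0.014 and 0.032 over all genes. In a culture, fewer cells of a type and less RNA per cell cannot be told apart.

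**Figure D1:**
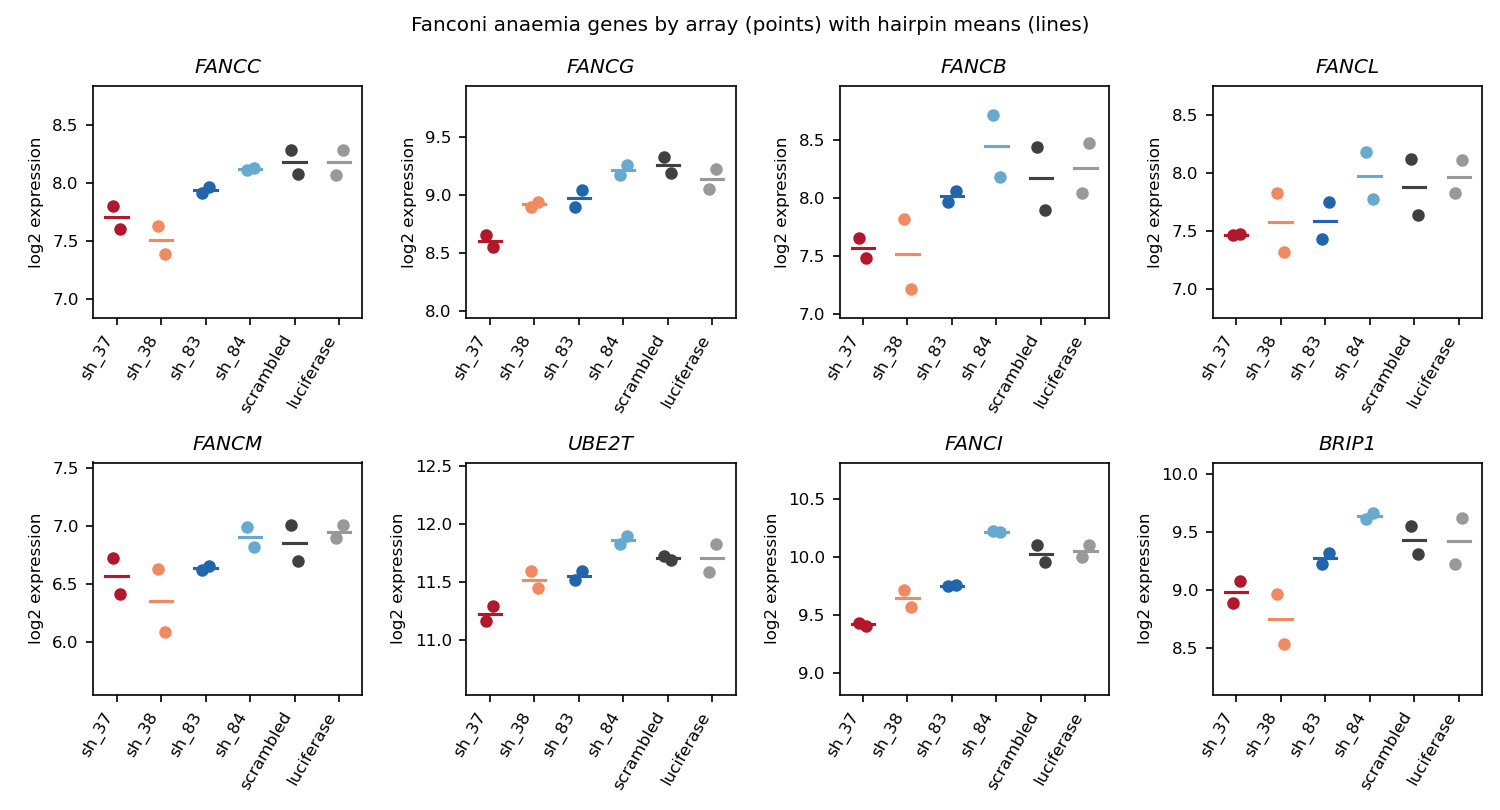
Log2 expression of the 8 measured Fanconi anaemia genes, 1 panel per gene, with a point per array and a line at the mean of the 2 arrays of each hairpin. For FANCC, FANCG, FANCB, FANCI and BRIP1 all 4 arrays with H2AZ2 hairpins (sh_37 and sh_38) lie below all 4 control arrays (scrambled and luciferase).

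FANCC, a subunit of the core complex, stood at 7.80 and 7.60 in the sh_37 arrays, 7.62 and 7.38 in the sh_38 arrays, 7.91 and 7.96 in the sh_83 arrays and 8.11 and 8.13 in the arrays labelled sh_84, against 8.28 and 8.08 in the scrambled and 8.06 and 8.28 in the luciferase arrays. Every H2AZ2 array was below every control array, both sh_83 arrays also lay just below the lowest control array, and the arrays labelled sh_84 lay among the controls. For 2 arrays of a hairpin against 4 controls, here and for the genes below, the share of all genes was not computed. Such a position is a description only. FANCC fell by 0.48 with sh_37 (SE 0.11, limma adjusted p = 0.0123) and by 0.67 with sh_38 (SE 0.11, adjusted p = 0.00578). Without sh_37 replicate 2 the first adjusted p was 0.174, and without sh_38 replicate 2 the second was 0.0963. Over both H2AZ2 hairpins, FANCC averaged 7.60 ± 0.17, against 8.18 ± 0.12 in the controls (SD, n = 4 each), a difference of -0.58 with a limma adjusted p of 0.0115. Without scrambled replicate 1 that adjusted p was 0.0873.

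The promoters of 4 genes that fell with sh_37, sh_38 or both are shown so that their upstream sequences can be set side by side. Each is the window of 300 bases, 250 before and 50 after the transcript start, from RefSeq on GRCh38.p14, minus strand, written 5′ to 3′. Capitals mark 3 kinds of letters searched on both strands: E2F-type letters (TTTCCCGC, TTTCGCGC, TTTGGCGC or TTTGCCGC), which E2F factors of the cell cycle bind; TTTGAA or TTCGAA, the cell cycle homology region found in genes expressed late in the cycle; and CCAAT, bound by NF-Y. The windows lie at chr9:95317660-95317959 for FANCC, chr9:35079893-35080192 for FANCG, chr1:202341887-202342186 for UBE2T and chr17:61863479-61863778 for BRIP1.
FANCC: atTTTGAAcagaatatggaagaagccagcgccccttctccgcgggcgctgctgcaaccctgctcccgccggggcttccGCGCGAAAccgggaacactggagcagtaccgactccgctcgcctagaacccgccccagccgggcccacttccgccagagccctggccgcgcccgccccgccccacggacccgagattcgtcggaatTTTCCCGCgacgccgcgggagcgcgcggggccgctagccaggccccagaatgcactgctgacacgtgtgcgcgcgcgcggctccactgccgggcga
FANCG: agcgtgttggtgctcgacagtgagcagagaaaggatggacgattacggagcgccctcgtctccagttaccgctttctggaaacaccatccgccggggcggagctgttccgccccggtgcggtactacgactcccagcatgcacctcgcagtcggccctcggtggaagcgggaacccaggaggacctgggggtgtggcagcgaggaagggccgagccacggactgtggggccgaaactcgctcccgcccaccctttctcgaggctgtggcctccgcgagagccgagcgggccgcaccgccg
UBE2T: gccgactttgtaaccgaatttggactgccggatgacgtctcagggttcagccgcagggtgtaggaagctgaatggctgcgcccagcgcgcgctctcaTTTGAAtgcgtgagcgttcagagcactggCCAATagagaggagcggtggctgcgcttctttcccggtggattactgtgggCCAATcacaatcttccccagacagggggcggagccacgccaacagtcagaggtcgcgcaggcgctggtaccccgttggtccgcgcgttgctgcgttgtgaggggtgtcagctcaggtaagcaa
BRIP1: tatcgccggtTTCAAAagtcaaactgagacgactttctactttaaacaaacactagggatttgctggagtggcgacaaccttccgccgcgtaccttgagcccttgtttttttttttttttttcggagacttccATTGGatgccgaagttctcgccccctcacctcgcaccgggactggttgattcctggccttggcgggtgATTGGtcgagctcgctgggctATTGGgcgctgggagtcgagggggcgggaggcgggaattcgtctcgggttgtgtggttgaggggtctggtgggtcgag

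FANCC carried E2F-type letters at 2 places, beginning at positions -172 and -46 from the transcript start, and TTTGAA at -248. UBE2T carried TTTGAA at -153 and CCAAT at -124 and -73, and BRIP1 carried TTTGAA at -240 and CCAAT at -117, -49 and -28. FANCG carried none of these letters. Of the 35116 RefSeq promoter windows searched, 3.31% held E2F-type letters, 16.4% TTTGAA or TTCGAA and 34.6% CCAAT. Of the 8 measured genes, 7 had a window, and FANCI, which fell with both sh_37 and sh_38, had none. Of the 7, 1 held E2F-type letters, 3 held TTTGAA and 3 held CCAAT (the 3 were BRIP1, FANCM and UBE2T). FANCC has a further window at an alternative start, which held none. A match is a description of letters, not a binding site, and its absence says nothing of the factor.

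FANCG, which binds FANCA within the core complex, stood at 8.65 and 8.55 in the sh_37 arrays, 8.90 and 8.94 in the sh_38 arrays, 8.90 and 9.04 in the sh_83 arrays and 9.17 and 9.26 in the arrays labelled sh_84, against 9.33 and 9.19 in the scrambled and 9.05 and 9.22 in the luciferase arrays. All H2AZ2 arrays lay below all control arrays, with sh_37 the lower of the hairpins. Both sh_83 arrays also lay below the lowest control array, one of them at the level of the sh_38 arrays. FANCG fell by 0.59 with sh_37 (SE 0.086, limma adjusted p = 0.0012), and this call held under each of the 21 alternatives run. With sh_38 the difference was -0.28 (adjusted p = 0.104). The difference between these hairpins, sh_37 minus sh_38, was -0.32 (95% interval -0.54 to -0.10, adjusted p = 0.0997), and FANCG was not called there.

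FANCB, encoded on the X chromosome and joined with FANCL in the core complex, stood at 7.66 and 7.49 in the sh_37 arrays, 7.82 and 7.21 in the sh_38 arrays, 7.96 and 8.06 in the sh_83 arrays and 8.71 and 8.18 in the arrays labelled sh_84, against 8.44 and 7.90 in the scrambled and 8.04 and 8.47 in the luciferase arrays. The H2AZ2 arrays lay below the controls without overlap, but replicates of one hairpin differed widely. Its differences, -0.64 with sh_37 and -0.70 with sh_38, were as large as those of the called genes. Neither was called (SE 0.21 for both, limma adjusted p = 0.0777 for sh_37 and 0.0977 for sh_38).

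FANCL, the ubiquitin ligase of the core complex, stood at 7.47 and 7.47 in the sh_37 arrays, 7.83 and 7.32 in the sh_38 arrays, 7.43 and 7.75 in the sh_83 arrays and 8.18 and 7.78 in the arrays labelled sh_84, against 8.12 and 7.64 in the scrambled and 7.83 and 8.11 in the luciferase arrays. One sh_38 array and one sh_83 array lay among the controls, and the other array of each lay below them. FANCL was called in no comparison with the controls; its differences were -0.45 with sh_37, -0.35 with sh_38 and -0.34 with sh_83 (SE 0.18, adjusted p = 0.149, 0.31 and 0.587).

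FANCM, the translocase that anchors the core complex on DNA, stood at 6.73 and 6.41 in the sh_37 arrays, 6.63 and 6.09 in the sh_38 arrays, 6.62 and 6.66 in the sh_83 arrays and 7.0 and 6.82 in the arrays labelled sh_84, against 7.01 and 6.70 in the scrambled and 6.90 and 7.01 in the luciferase arrays. One sh_37 array overlapped the controls, whereas both sh_38 and both sh_83 arrays lay below them. Its differences were -0.33 with sh_37 and -0.55 with sh_38 (SE 0.15 for both, adjusted p = 0.207 for sh_37 and 0.0733 for sh_38), and it was not called.

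UBE2T, the ubiquitin-conjugating enzyme that works with FANCL, stood at 11.16 and 11.29 in the sh_37 arrays, 11.60 and 11.45 in the sh_38 arrays, 11.52 and 11.59 in the sh_83 arrays and 11.82 and 11.90 in the arrays labelled sh_84, against 11.72 and 11.69 in the scrambled and 11.59 and 11.82 in the luciferase arrays. The sh_37 arrays stood clear below the controls, whereas one sh_38 array lay at the level of the lowest control array. UBE2T fell by 0.48 with sh_37 (SE 0.090, limma adjusted p = 0.00516), a call that was lost without sh_37 replicate 1 (adjusted p = 0.0874). With sh_38 its difference was -0.19 (adjusted p = 0.278), and sh_37 minus sh_38 gave -0.30 (95% interval -0.53 to -0.07, adjusted p = 0.146).

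FANCI, which is ubiquitinated together with FANCD2, stood at 9.43 and 9.41 in the sh_37 arrays, 9.71 and 9.57 in the sh_38 arrays, 9.75 and 9.76 in the sh_83 arrays and 10.22 and 10.21 in the arrays labelled sh_84, against 10.10 and 9.96 in the scrambled and 10.00 and 10.10 in the luciferase arrays. Its replicates lay close together: every array with an H2AZ2 hairpin or sh_83 was below all controls, and both arrays labelled sh_84 were above them. How many of all genes place both arrays of sh_83 or sh_84 outside the controls was not computed. FANCI fell by 0.62 with sh_37 (SE 0.079, limma adjusted p = 0.00052) and by 0.40 with sh_38 (SE 0.079, adjusted p = 0.0171). The sh_37 call held under each of the 21 alternatives. The sh_38 call held under 17 of the 21, in which the difference ran from -0.47 to -0.31. Among others, it was lost without sh_38 replicate 2 and without luciferase replicate 2.

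BRIP1, a helicase that acts downstream of the ubiquitinated pair, stood at 8.89 and 9.07 in the sh_37 arrays, 8.96 and 8.54 in the sh_38 arrays, 9.23 and 9.32 in the sh_83 arrays and 9.62 and 9.66 in the arrays labelled sh_84, against 9.55 and 9.31 in the scrambled and 9.22 and 9.62 in the luciferase arrays. All H2AZ2 arrays lay below all controls, and the sh_83 arrays lay within them. BRIP1 fell by 0.68 with sh_38 (SE 0.14, limma adjusted p = 0.0225); with sh_37 its difference was -0.44 (adjusted p = 0.0657). The sh_38 call held under 15 of the 21 alternatives, in which the difference ran from -0.89 to -0.46. Among others, it was lost without scrambled replicate 1, without sh_38 replicate 2 and without luciferase replicate 2.

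**Figure D2:**
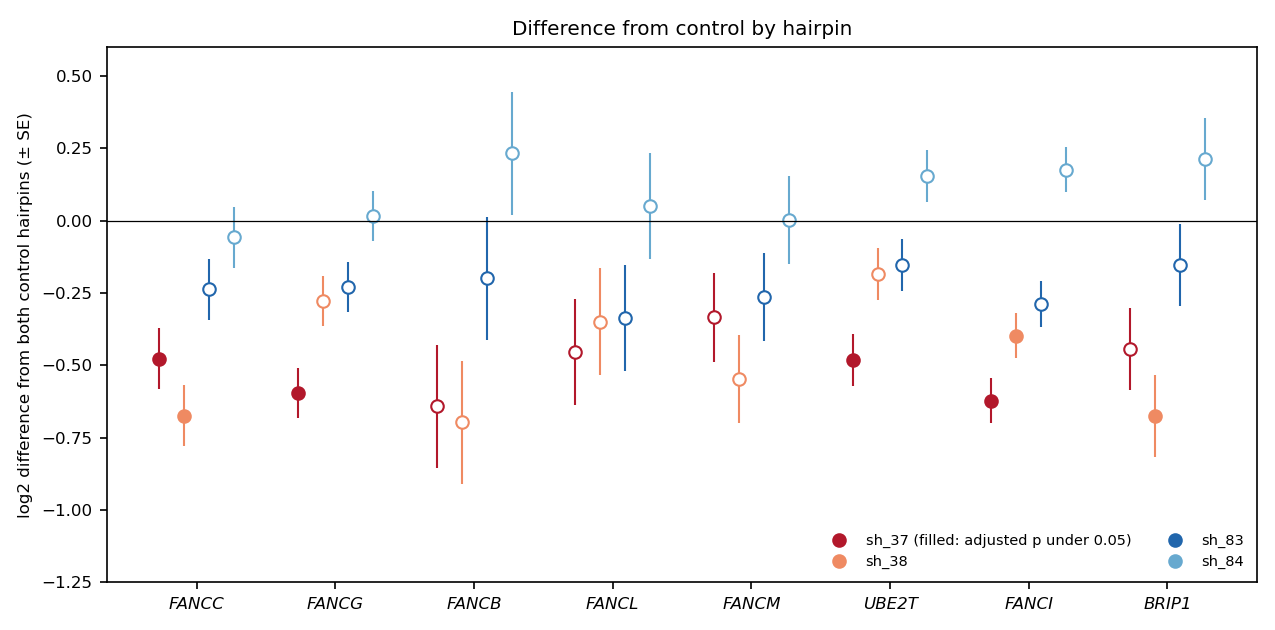
Difference in log2 expression from both control hairpins for each of the 4 hairpins, per gene, with bars of ± 1 SE and filled points for an adjusted p under 0.05. The filled points are 4 of sh_37 and 3 of sh_38; sh_83 points lie between -0.15 and -0.34, and sh_84 points between -0.06 and 0.23.

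Both H2AZ2 hairpins were also set together against both control hairpins, with the hairpin as a random block. In this fit 3 of the 8 genes fell, FANCC, FANCI and FANCG, where 2.44% of all genes were called lower, and none rose. FANCI averaged 9.53 ± 0.14 with H2AZ2 hairpins, against 10.04 ± 0.07 in the controls (SD, n = 4 each), a difference of -0.51 (limma adjusted p = 0.036). FANCG averaged 8.76 ± 0.19 with H2AZ2 hairpins, against 9.20 ± 0.11 in the controls, a difference of -0.44 (adjusted p = 0.0457). The genes that were not called had differences of -0.67 for FANCB (adjusted p = 0.0861), -0.56 for BRIP1 (0.0523), -0.44 for FANCM (0.128), -0.40 for FANCL (0.252) and -0.33 for UBE2T (0.139). Of the 8 genes, 5 had all 4 H2AZ2 arrays below all 4 control arrays, as had 7.46% of all genes. The count of called genes rests on single arrays: it was 0 without scrambled replicate 1, and 1 without sh_37 replicate 1, sh_37 replicate 2, luciferase replicate 1 or luciferase replicate 2. Without scrambled replicate 1 the differences were -0.53 for FANCC, -0.48 for FANCI and -0.40 for FANCG. The share of all genes called in these fits is not given here, so the drop is not a result about the 8 genes alone. The count was also 0 without either control hairpin. The gene that remained called in most alternatives was FANCC, in 23 of 26, against 15 for FANCI and 9 for FANCG.

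With the H2AZ1 hairpin sh_83, which lowered its target, none of the 8 genes was called by limma, where 0.489% of all genes were called lower. Of the 8 differences, all were below 0, from -0.15 for UBE2T to -0.34 for FANCL, and 3 had an unadjusted p under 0.05, as had 10.2% of all genes. FANCI, the gene with the lowest adjusted p here, differed by -0.29 (SE 0.079, adjusted p = 0.171). With the arrays labelled sh_84, again 0 of 8 were called, where 0.353% of all genes were called in either direction, and 1, FANCI, had an unadjusted p under 0.05 (difference 0.18, adjusted p = 0.581), as had 8.36% of all genes. Over both H2AZ1 hairpins, 0 of 8 passed and 0 had an unadjusted p under 0.05, and 0% of all genes were called, with differences between -0.15 and 0.03. That mean joins a hairpin that lowered H2AZ1 with arrays in which H2AZ1 was not called lower.

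Whether the H2AZ2 hairpins differ from the H2AZ1 hairpin was tested directly. Against sh_83, none of the 8 genes was called, where 5.23% of all genes were called in either direction, and 5 of the 8 had an unadjusted p under 0.05, as had 16.9% of all genes. All 8 were lower with the H2AZ2 hairpins than with sh_83, with a median difference of -0.21, against 0.0069 over all genes. The difference, H2AZ2 hairpins minus sh_83, was -0.47 for FANCB (95% interval -0.94 to -0.0009, adjusted p = 0.294), -0.41 for BRIP1 (adjusted p = 0.147) and -0.34 for FANCC (95% interval -0.57 to -0.11, adjusted p = 0.104). For FANCL it was -0.07, with an interval of -0.47 to 0.34. These intervals reach past the size of the H2AZ2 effect for some genes, so a p that misses the threshold does not show that the targets act alike. Both sides have their own arrays here, but each was set above against the same 4 control arrays.

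Against the arrays labelled sh_84, a comparison added after the values were seen, 6 of the 8 genes were lower with the H2AZ2 hairpins, where 6.5% of all genes were called lower. FANCI differed by -0.69 (SE 0.079, limma adjusted p = 0.000391), FANCB by -0.90 (adjusted p = 0.0179) and BRIP1 by -0.77 (adjusted p = 0.00486). FANCC, UBE2T and FANCG differed by -0.52, -0.49 and -0.45, and FANCL and FANCM, at -0.45 and -0.44, were not called (adjusted p = 0.151 and 0.0873). Without sh_84 replicate 2, the array whose labels disagree, 2 of the 8 were called. Between the H2AZ1 hairpins, sh_83 minus the arrays labelled sh_84, only FANCI of the 8 was called lower (-0.46, SE 0.091, adjusted p = 0.0388), where 0.472% of all genes were called lower. That call was lost without any one array of sh_37, sh_83 or sh_84.

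The hairpins of one target were compared as well. Between sh_37 and sh_38, 0 of 8 genes passed by limma and 3 (FANCG, FANCI and UBE2T, all lower with sh_37) had an unadjusted p under 0.05, as had 17.7% of all genes, where 6.27% of all genes were called in either direction. The differences ran from -0.32 for FANCG to 0.23 for BRIP1. Between scrambled and luciferase, 0 of 8 were called and 0 had an unadjusted p under 0.05, where 0% of all genes were called, although 1384 genes had an unadjusted p under 0.05. The differences of the 8 genes between these controls lay between -0.10 and 0.12.

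More of the pathway was read from a list of 36 further genes, of which 32 were measured. The list held other core complex and associated proteins, nucleases, recombination and translesion factors, the enzymes that remove the ubiquitin, and some others. With the H2AZ2 hairpins 8 of the 32 fell and 0 rose, where 2.44% of all genes fell, and their median difference was -0.17, against 0.028 over all genes. With sh_37 12 of the 32 fell and with sh_38 8 fell, where 7.19% of all genes fell with sh_37 and 3.33% with sh_38. With sh_83 1 fell (RFWD3, a ubiquitin ligase of crosslink repair, by 0.44, adjusted p = 0.0468), where 0.489% of all genes were called lower. With the arrays labelled sh_84 0 were called, where 0.353% of all genes were called in either direction. None rose in any of these comparisons. Set against sh_83, the H2AZ2 hairpins had 3 of the 32 called lower, where 5.23% of all genes were called in either direction. Without scrambled replicate 1 the count of 8 was 1, without luciferase replicate 2 it was 2 and without sh_37 replicate 2 it was 5. Without the scrambled hairpin it was 0 and without the luciferase hairpin 1.

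XRCC2, a recombination protein, had the lowest of these differences with the H2AZ2 hairpins, -0.85 (SE 0.18, limma adjusted p = 0.0242), followed by RMI1, a partner of the BLM helicase, at -0.70 (adjusted p = 0.0239). FANCE, the core complex subunit that contacts FANCD2, differed by -0.68 (SE 0.098, adjusted p = 0.00482). EME1, a subunit of a junction-cutting nuclease, fell by 0.57 (adjusted p = 0.0377), BLM by 0.51 (adjusted p = 0.0388) and the nuclease DCLRE1B by 0.47 (adjusted p = 0.0113). USP1, which removes ubiquitin from FANCD2, fell by 0.40 (adjusted p = 0.0218), as did UHRF1, which binds crosslinked DNA (-0.40, adjusted p = 0.0275). At the other end stood REV3L, the catalytic subunit of translesion polymerase zeta, at 0.23 (adjusted p = 0.303), and the core complex partner FAAP100 at 0.20 (adjusted p = 0.188). FANCD2OS, which is none of the kinds of repair protein named above, stood at 0.19 (adjusted p = 0.594). None of these genes was called.

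**Figure D3:**
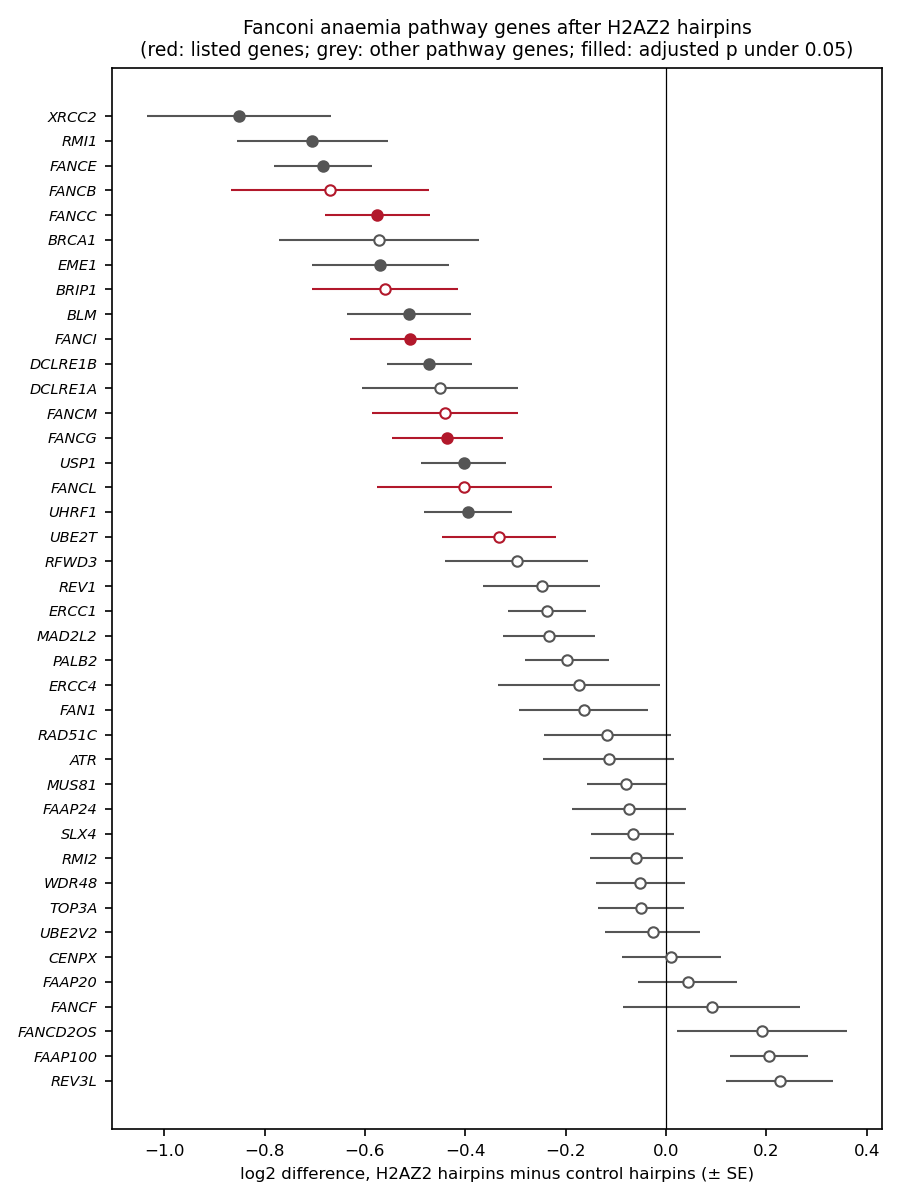
Difference in log2 expression, H2AZ2 hairpins minus control hairpins, for the 8 measured Fanconi anaemia genes (red) and 32 other pathway genes (grey), with bars of ± 1 SE and filled points for an adjusted p under 0.05. All 8 red points lie left of 0, between -0.67 and -0.33, and 3 are filled; 8 of the grey points are filled, all left of 0.

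Genes of cell proliferation were also lower with the H2AZ2 hairpins. Of 22 such genes (cyclins, replication helicase subunits, mitotic kinases and others), 22 fell with sh_37 and 10 with sh_38, with medians of -0.58 for sh_37 and -0.37 for sh_38. Over both H2AZ2 hairpins 14 fell, with a median of -0.47. Of all genes, 7.19% fell with sh_37, 3.33% with sh_38 and 2.44% over both. With sh_83 and with the arrays labelled sh_84, 0 of the 22 were called. Of all genes, 0.489% were called lower with sh_83 and 0.353% in either direction with the arrays labelled sh_84. The medians of the 22 were -0.08 and 0.09, against -0.23 and 0.10 for the 8 genes. Between the H2AZ2 hairpins the lists parted: sh_37 minus sh_38 had a median of -0.24 over the 22 genes and -0.03 over the 8. That difference was below 0 for 21 of the 22 and for 4 of the 8. With H2AZ2 hairpins CDK1, the kinase that starts mitosis, fell by 0.72 (adjusted p = 0.00722), and MCM6, a subunit of the replicative helicase, by 0.73 (adjusted p = 0.00651). Set against sh_83, the H2AZ2 hairpins had 12 of the 22 called lower, where 5.23% of all genes were called in either direction. The share of proliferating cells in the cultures was not measured, and its part in the lower Fanconi anaemia transcripts was not tested.

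By likeness of profile over the 4 hairpin differences, the genes outside the pathway lists nearest to the median of the 8 were SIPA1L1, H2AC20, POLE, POLA2, H2BC13 and MSH6, with root mean square distances of 0.021 to 0.040 in log2 units. POLE and POLA2 encode subunits of replicative DNA polymerases, MSH6 a mismatch repair protein, and H2AC20 and H2BC13 histones H2A and H2B. POLE, for example, differed by -0.48 with sh_37, -0.50 with sh_38, -0.26 with sh_83 and 0.07 with the arrays labelled sh_84. The 8 genes themselves lay at distances of 0.085 (FANCL) to 0.15 (FANCB) from their own median, farther than these 6, which were picked as the nearest of all genes.

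The level of small nucleolar RNA transcripts differed between arrays, also between replicates of a hairpin. The mean of 192 such genes was between 6.68 and 6.93 in the arrays with H2AZ2 hairpins and between 6.73 and 7.18 in the control arrays. FANCB, FANCI and FANCM were higher in the replicate with the higher small nucleolar RNA mean in 6 of 6 hairpins, as were 5.68% of all genes; FANCC and FANCL were so in 5 of 6, where 22.2% of all genes were so in at least as many, and FANCG, BRIP1 and UBE2T in 4 of 6, where 41% of all genes were so in at least as many. With this mean as a covariate, an alternative added after seeing the data, 7 of the 8 genes were called lower with sh_37, where 8.93% of all genes were. With the covariate, FANCC alone of the 8 was called lower with sh_38, where 2.07% of all genes were, and with H2AZ2 hairpins together (-0.49, adjusted p = 0.0289), where 1.16% were. Among markers of other cell types, the mean of 4 fibroblast genes was between 6.91 and 7.25 with H2AZ2 hairpins and between 6.54 and 6.71 in the controls, with 0 of 4 called; the melanocyte, undifferentiated melanoma, keratinocyte, endothelial and leukocyte lists overlapped between these groups and also had 0 called. The part of either in the lower Fanconi anaemia transcripts was not tested.

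**Figure D4:**
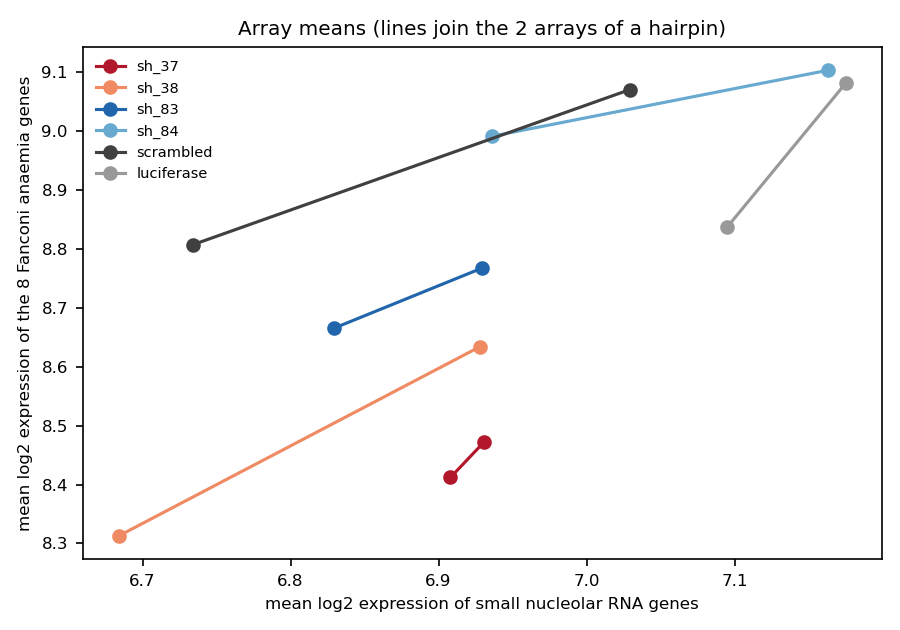
Mean log2 expression of the 8 measured Fanconi anaemia genes (vertical axis) against the mean of 192 small nucleolar RNA genes (horizontal axis), with a point per array and a line joining the 2 arrays of a hairpin. In each of the 6 hairpins the array with the higher small nucleolar RNA mean has the higher Fanconi anaemia mean; the H2AZ2 arrays lie between 8.31 and 8.63 on the vertical axis and the control arrays between 8.81 and 9.08.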

How the data were processed

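Expression was measured on 12 arrays, 2 for each of 6 hairpins. The deposited values are log2 expression for each probe set; per the submitters' processing notes the method was RMA, whose version is not given in the sources used here. Of 33297 probe sets, 19460 had 1 gene symbol and 1754 had several, while 12083 had no symbol in the platform annotation or were not listed there. The brightest probe set with 1 symbol was kept per gene, giving 18417 genes, and no values were normalized again in the main setting. Tests used limma 3.58.1 in R 4.3.3 with moderated statistics and Benjamini-Hochberg adjustment over all 18417 genes: a fit by hairpin, and a fit by target with hairpin as a random block (consensus correlation 0.157). The threshold was 0.05. Promoters came from RefSeq (GRCh38.p14). Figures were drawn with matplotlib 3.10.9.

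The 10 genes and all other lists were chosen with earlier results of these data known. Named genes outside the 10 are the called further pathway genes, the 3 highest of that list, the targeted genes, the cell type markers and the 6 nearest profiles; RFWD3, CDK1 and MCM6 were picked after their values were seen. Alternatives covered each array and hairpin left out, normalization, the variance model, a filter on the dimmest 25% of genes, probe set averaging and the blocks. Array background values and scan dates were not analysed here.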

Additional observations from a re-analysis of the deposited data

Results flagged for a closer look

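Differences between the effects of hairpins passed the test of the difference itself for 7 values. 6 of the Fanconi anaemia genes were lower with the H2AZ2 hairpins than in the arrays labelled sh_84 (log2 difference, H2AZ2 hairpins minus arrays labelled sh_84): FANCB by -0.90, BRIP1 by -0.77, FANCI by -0.69, FANCC by -0.52, UBE2T by -0.49 and FANCG by -0.45. For FANCI the difference sh_83 minus arrays labelled sh_84 was -0.46. Both comparisons rest on arrays in which the H2AZ1 transcript was not called lower than in controls and of which replicate 2 carries conflicting labels. For each of the 8 genes in each group of 4 arrays, the gap of the highest or lowest array to its neighbour, as a share of the group's range, stayed under Dixon's 95% critical value. The highest share was 0.717 (FANCB, H2AZ1 hairpins, sh_84 replicate 1). Each group of 4 joins 2 hairpins, so a difference between hairpins widens the range and can hide a single array that stands apart.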

How the results depend on the processing

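No called value of the 8 genes reversed under any of the 28 settings. Of 1583 uncalled values of these genes and of H2AZ1 and H2AZ2, 67 had the other sign. The count of called genes with H2AZ2 hairpins, 3 of 8, was 1 with the replicate block, 5 with no hairpin block, 0 without hairpin scrambled, 0 without hairpin luciferase, 1 without hairpin sh_37 and 1 with the small nucleolar RNA covariate, and 0 to 4 with each array left out. No pairing is given by the labels: deviations of same-numbered arrays correlated at over 0.1 in 9 of 15 pairs of hairpins, from -0.47 to 0.68. The replicate block gave 4 called genes with sh_38, 7 against the arrays labelled sh_84 and 6 of the further pathway genes, and left the other counts as they were. A variance trend gave 4 called genes with the H2AZ2 hairpins, 6 with sh_37 and 4 with sh_38. Renewed quantile normalization gave 2 with the H2AZ2 hairpins, 5 with sh_37 and 6 of the further pathway genes. Median centring gave 2 with the H2AZ2 hairpins. FANCG was the gene no longer called with the H2AZ2 hairpins in both. With sh_38, 3 of 8 were called; the count was 1 with scrambled alone as control, 1 with the covariate and 0 to 5 with each array left out. With sh_37, 4 were called, 7 with the covariate and 3 to 6 with each array left out. Between sh_37 and sh_38 the count of 0 was 1 after renewed quantile normalization, 1 with a variance trend and 2 with the covariate. Against sh_83 the count of 0 was 3 with the covariate. Against the arrays labelled sh_84 the count of 6 was 2 to 7 with each array left out, and for sh_83 against those arrays the count of 1 was 0 to 1. Of the 32 further pathway genes, 8 were called, 1 to 8 with each array left out, 0 without hairpin scrambled, 4 without hairpin sh_37, 1 without hairpin luciferase and 3 with the covariate. The counts of 0 for sh_83, for the arrays labelled sh_84, for H2AZ1 hairpins and between the controls stayed at 0 throughout. Where fewer arrays are fitted the test has less to go on; otherwise the cause was not tested. The share of all genes called is given above for the covariate fits of sh_37, sh_38 and the H2AZ2 hairpins, and not for the other settings. A changed count there is therefore not a result about the listed genes alone. Signal over background is unknown here.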
